A study of Bubalus bubalis with 12 samples.

Results

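Endoplasmic reticulum (ER) chaperones are the proteins that fold newly made secreted and membrane proteins, and 10 of their genes were examined in the ruminal wall of dairy buffaloes. These were HSP90B1, HSPA5, CALR, CANX, PDIA3, PDIA4, PDIA6, DNAJB11, HYOU1 and SDF2L1, taken by symbol from a table of 34037 genes. HSP90B1 was chosen by its FPKM in these same animals, in which it was lower with green feed, and the other 9 were named by function to ask whether they follow it. The difference of HSP90B1 between the diets is therefore a description and has no test. All 10 genes were found in the table and all 10 were among the 12642 genes that passed the filter on low read numbers.

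Frozen rumen wall tissue had been taken at slaughter from 12 adult Italian Mediterranean dairy buffaloes (Bubalus bubalis), 1 library of total RNA per animal and none pooled. The control group of 6 animals was fed a total mixed ration (TMR), and the treated group of 6 animals was fed TMR with 30% green feed, which was fresh ryegrass. Both groups were kept on the same farm, and their diets were balanced for nitrogen and energy. The treated ration also held less corn silage and alfalfa hay, more corn meal and no soybean meal. Its share of forage against concentrates was larger. The values are FPKM, that is sequenced fragments per gene scaled by gene length and by all counted fragments of the animal, so that levels can be compared between genes. The counted fragments lay between 10531468 and 12948299 per animal. Control 6 and treated 6 stood apart, since the fragment numbers per gene of treated 6 differed from those of the other treated animals by 73.2 to 122 times the sampling noise (chi-square over its degrees of freedom) and those of control 6 from the other controls by 55.1 to 64.6 times, against 19.2 to 55.6 times for all other pairs within groups. The tissue was bulk wall, in which fewer cells of a type and less RNA per cell cannot be told apart. The basal keratin gene KRT5 averaged 1436 FPKM in control and 1550.4 FPKM in treated animals and the suprabasal KRT13 averaged 1650 and 1495 FPKM, so that both defining markers of a squamous epithelium were abundant.

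As background, proteins enter the ER through a translocon and are held by HSPA5 (BiP), the HSP70 of this compartment, which works with J-domain proteins and exchange factors. Glycoproteins are held by the lectins calnexin and calreticulin, disulfide bonds are made by protein disulfide isomerases, and a few clients such as integrins and Toll-like receptors are matured by HSP90B1 (GRP94). When unfolded proteins accumulate, the sensors of the unfolded protein response (UPR) raise the transcription of most of these genes, so that they are known to be induced together.

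The most abundant members averaged over 100 FPKM in the 12 animals and the scarcest were below 10 FPKM. By the mean over all animals the order was HSPA5 (142.7 FPKM), HSP90B1 (134 FPKM), CALR (128.3 FPKM), PDIA3 (122.9 FPKM), PDIA6 (119.97 FPKM), CANX (80.4 FPKM), PDIA4 (38.9 FPKM), DNAJB11 (16.6 FPKM), HYOU1 (7.55 FPKM) and SDF2L1 (7.27 FPKM). The first 5 were not apart beyond their spread, since HSPA5 exceeded HSP90B1 in 5 of 12 animals, HSP90B1 exceeded CALR in 8, CALR exceeded PDIA3 in 9 and PDIA3 exceeded PDIA6 in 5. PDIA6 exceeded CANX in 12 of 12 animals although their ranges overlapped. The ranges of CANX and PDIA4 did not overlap, nor did those of PDIA4 and DNAJB11. DNAJB11 exceeded HYOU1 in 12 of 12 animals, and HYOU1 exceeded SDF2L1 in 8. The chaperone that holds clients, HSPA5, averaged many times the level of its exchange factor HYOU1 and of SDF2L1, the partner of DNAJB11.

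**Figure D1:**
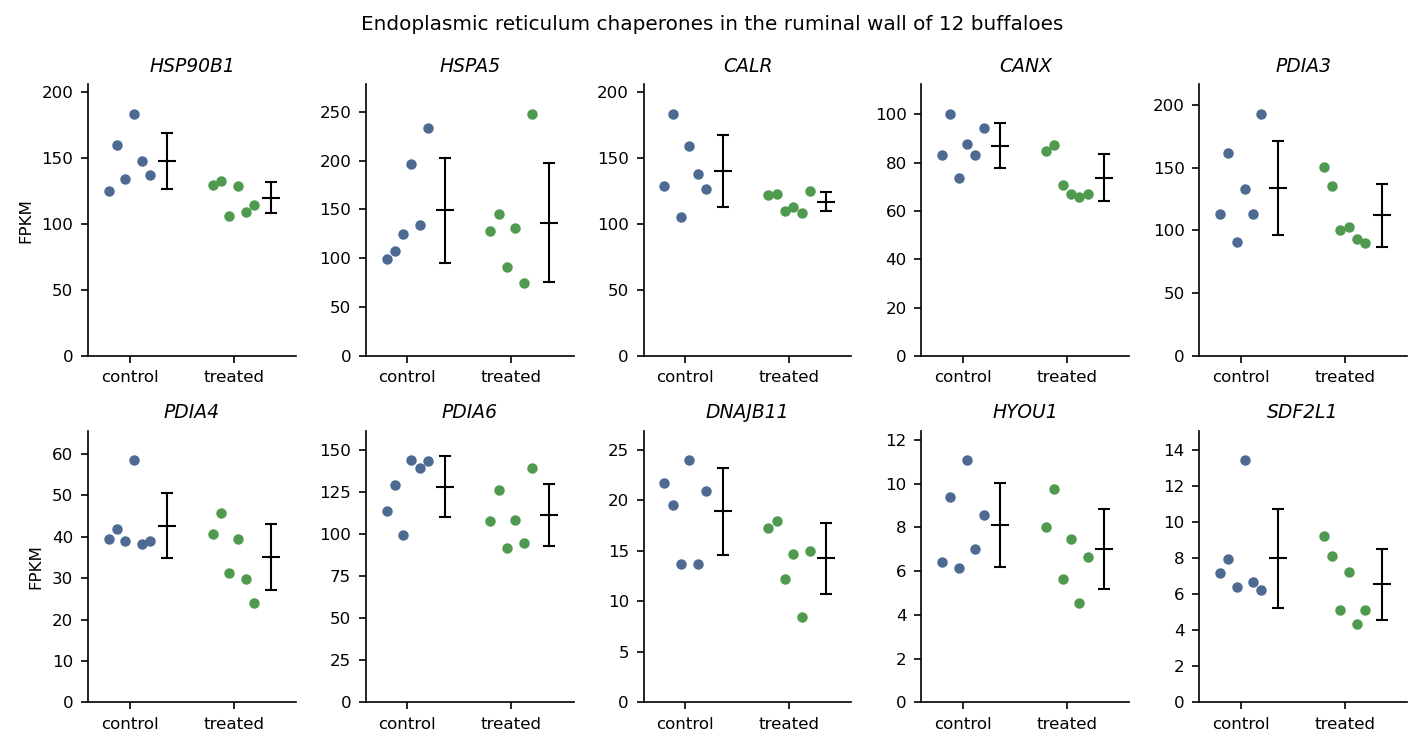
FPKM of the 10 chaperone genes (vertical axes, from 0) in the 6 control animals (blue) and the 6 treated animals (green), 1 point per animal in the order of the replicate numbers, with the mean ± SD beside the points. The treated points of HSP90B1 lie between 106 and 133 FPKM and overlap only the lowest control point, and HSPA5 spans from 74.5 to 248 FPKM within the treated group alone.

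HSP90B1 was lower in the treated animals by the way it was chosen. All 9 other chaperone genes also had a lower mean log2 FPKM in the treated animals, where 48.7% of the 12642 genes tested were lower. The median log2 difference (treated minus control) of the 9 members other than HSP90B1 was -0.24, against 0.0053 over all genes tested, and 13.5% of all genes had a log2 difference at or below that of HSPA5, the smallest of the 9. The members correlated with each other over the animals within groups, so the 9 directions are not independent observations. No member passed limma's test after Benjamini-Hochberg adjustment, nor did any of the 12642 genes, with the smallest adjusted p = 0.9997. At an unadjusted limma p below 0.05, 1 of the 9 members was lower (CANX), beside 1.24% of all genes in either direction and 0.451% in the direction of CANX. By the exact two-sided permutation test over all assignments of the animals to groups the count was also 1 of 9, beside 1.73% of all genes, of which 0.775% were lower. In 0 of the 10 genes did the groups lie fully apart, as did 0.0237% of all genes with every treated animal below every control. Without control 6 and treated 6, all 9 were still lower with a median of -0.22, and 1 of the 9 (CALR in place of CANX) had an unadjusted limma p below 0.05. In that fit 314 of the 12642 genes had such a p in either direction, against 157 with all animals.

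**Figure D2:**
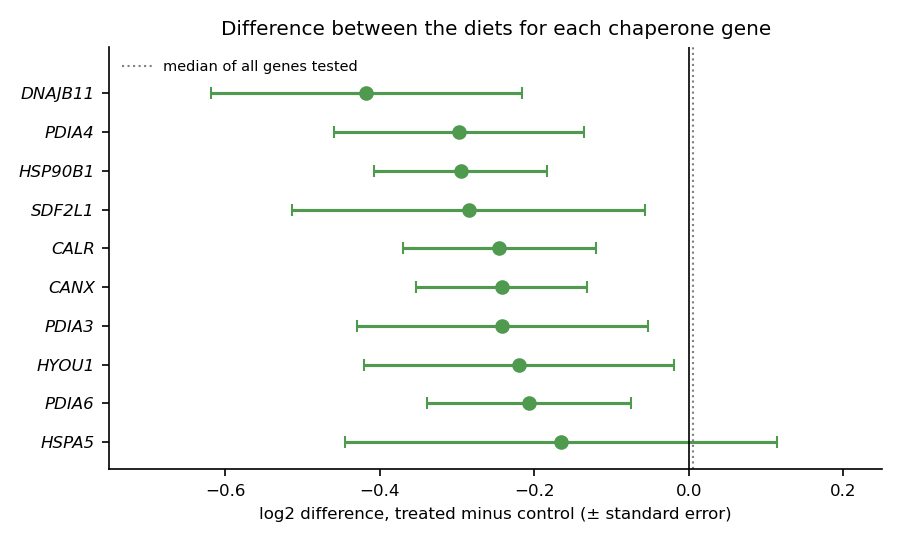
Difference in mean log2(FPKM + 0.01) between treated and control animals (horizontal axis, points) with its standard error (bars) for the 10 chaperone genes. All points lie left of 0, from -0.42 for DNAJB11 to -0.17 for HSPA5, and the dotted line marks the median of all genes tested at 0.0053.

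HSP90B1 (NCBI gene 102399111), the HSP90 of the ER, ranged in control animals from 125 FPKM over a median of 143 to 184 FPKM. In treated animals it ranged from 106 over 121 to 133 FPKM. Of the treated animals, 3 lay below every control, and 5 controls lay above every treated animal, while control 1 lay among the treated. Its mean was 147.9 ± 21.2 FPKM (SD, n = 6) in control and 120.05 ± 11.7 FPKM (n = 6) in treated animals, a log2 difference of -0.30 with a standard error of 0.11, or -18.5%. Its log2 level had the second smallest spread among the 10 genes, with an SD of 0.17 within groups.

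HSPA5 (gene 102412431), which binds unfolded chains and the UPR sensors, ranged from 99.3 FPKM over a median of 129.4 to 233 FPKM in control animals and from 74.5 over 129.5 to 248 FPKM in treated animals. The highest animals were control 6 and treated 6, and the groups overlapped almost entirely. The log2 difference was -0.17 ± 0.28 (SE), with a 95% interval from -0.77 to 0.44 (exact permutation p = 0.61), that is from -41.2% to 35.2%. Its direction was not stable, since the group medians differed by 0.0028 on the log2 scale in the opposite direction. The log2 difference of HSPA5 was between -0.01 (without treated 5) and -0.36 (without treated 6) with an animal left out, and -0.22 without control 6 and treated 6. The spread within groups, an SD of 0.55 on the log2 scale, was the widest of the 10 genes.

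HYOU1 (gene 102389748), an exchange factor for HSPA5, ranged from 6.15 FPKM over a median of 7.8 to 11.1 FPKM in control and from 4.56 over 7.04 to 9.74 FPKM in treated animals. Its log2 difference was -0.22 ± 0.20 (SE), with an interval from -0.65 to 0.21 (exact permutation p = 0.32). It was -0.10 without treated 5 and -0.12 without control 4. DNAJB11 (gene 102410948), a J-domain protein that hands clients to HSPA5, ranged from 13.7 over 20.2 to 24 FPKM in control and from 8.44 over 14.8 to 18 FPKM in treated animals. All 6 treated animals lay below the control median of DNAJB11 and 4 controls lay above every treated animal, and its log2 difference was the largest of the 10 genes at -0.42 ± 0.20 (SE), with an interval from -0.85 to 0.02 (exact permutation p = 0.080). It was -0.27 without treated 5. SDF2L1 (gene 102393640), a UPR-induced partner of DNAJB11, ranged from 6.22 over 6.94 to 13.4 FPKM in control and from 4.36 over 6.2 to 9.25 FPKM in treated animals. The SDF2L1 values rested on 56 to 185 fragments per animal, the fewest of the 10 genes, and its log2 difference was -0.28 ± 0.23 (SE), with an interval from -0.78 to 0.21 (exact permutation p = 0.29). It was -0.12 without control 4 and -0.18 without treated 5.

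Of the lectin chaperones, calreticulin is soluble and calnexin is anchored in the ER membrane. CALR (gene 102413610) ranged from 105 FPKM over a median of 133 to 183 FPKM in control and from 108 over 117 to 125 FPKM in treated animals. Among the controls, 5 lay above every treated animal, while control 3 lay below all of the treated. The log2 difference of CALR was -0.25 ± 0.12 (SE), with an interval from -0.51 to 0.02 (exact permutation p = 0.063), and was -0.16 without control 2. CANX (gene 102413795) ranged from 73.6 over 85.6 to 100.3 FPKM in control and from 65.7 over 68.9 to 87.4 FPKM in treated animals, with 4 treated animals below every control. The log2 difference of CANX was -0.24 ± 0.11 (SE), with an interval from -0.48 to -0.0047 (limma p = 0.0462, exact permutation p = 0.0390, adjusted p = 0.9997 by limma and 1 by permutation). The unadjusted limma p of CANX lay between 0.0564 and 0.106 when any of control 1, 2, 4, 5 and 6 or treated 3, 4, 5 and 6 was left out, and was 0.0511 with robust empirical Bayes.

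Of the disulfide isomerases, PDIA3 works with the lectins on glycoproteins, and PDIA4 and PDIA6 serve other ER clients. PDIA3 (gene 102408568) ranged from 90.4 FPKM over 122.9 to 193 FPKM in control and from 89.7 over 101.6 to 150.1 FPKM in treated animals. Its log2 difference was -0.24 ± 0.19 (SE), with an interval from -0.65 to 0.16 (exact permutation p = 0.26). It was -0.13 without control 6 and -0.07 without control 6 and treated 6. PDIA4 (gene 102409586) ranged from 38.3 over 39.3 to 58.5 FPKM in control and from 24.1 over 35.3 to 45.7 FPKM in treated animals. Apart from control 4, the controls of PDIA4 lay within 38.3 and 41.9 FPKM, and 3 treated animals lay below all of them. Its log2 difference was -0.30 ± 0.16 (SE), with an interval from -0.64 to 0.05 (exact permutation p = 0.11), and was -0.19 without treated 6. PDIA6 (gene 102414421) ranged from 99.6 over 134.7 to 144 FPKM in control and from 92.1 over 108 to 139.7 FPKM in treated animals, with a log2 difference of -0.21 ± 0.13 (SE) and an interval from -0.49 to 0.08 (exact permutation p = 0.14).

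The same few animals were high or low in most of the chaperone genes. Control 4 was the highest of the 12 animals in 6 of the 10 genes and among the highest 3 in 9 of them. Treated 5 was the lowest in 5 genes and among the lowest 3 in all 10, and treated 3 was among the lowest 3 in 8. Control 3 lay below the control mean in all 10 genes. The summed FPKM of the 10 genes was 864 ± 135 (SD, n = 6) in control and 733 ± 106 (n = 6) in treated animals, and ranged from 693 to 1011 and from 592 to 834, so that the groups overlapped. HSPA5 was high in relation to HSP90B1 in control 6 and treated 6. The ratio of the levels was 1.7 in control 6 and 2.18 in treated 6, and between 0.671 and 1.1 in the other 10 animals.

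Within the groups, the level of HSP90B1 was compared with that of every other gene by the correlation of log2 FPKM over the 12 animals after removal of the group means, which does not use the difference between the diets. All 9 members correlated positively, with a median Pearson r of 0.52 against 0.043 over all 12641 other genes. The 11 cytosolic and mitochondrial chaperone genes tested had a median r of 0.46 with HSP90B1, and 9 of them were positive. A positive r was therefore not particular to the ER chaperones. SDF2L1 had the highest r of all 12641 genes (r = 0.86, rho = 0.77, permutation p = 0.0017) and HYOU1 the next (r = 0.86, rho = 0.91, permutation p = 0.0004). PDIA4 ranked 12 (r = 0.78, rho = 0.68, permutation p = 0.0045) and CALR ranked 85 (r = 0.67, rho = 0.77, permutation p = 0.044). These 4 of 9 members had an unadjusted p below 0.05, beside 1.61% of all genes with a positive r. No gene passed the Benjamini-Hochberg adjustment over all genes (adjusted p = 0.998 for each of the 9), neither with Pearson's r nor with Spearman's rho. PDIA6, DNAJB11 and CANX each had an r of 0.52 and ranked 384, 394 and 396, PDIA3 had an r of 0.45 and ranked 726, and HSPA5 had an r of 0.35 (rho = 0.55, permutation p = 0.26) and ranked 1374.

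**Figure D3:**
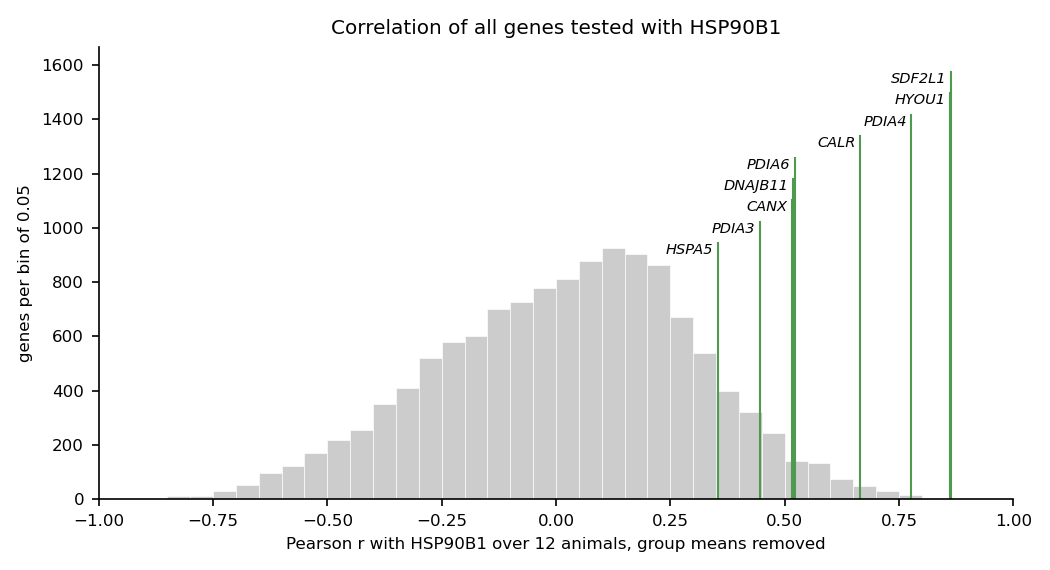
Number of genes (vertical axis) by their Pearson r with HSP90B1 over 12 animals after removal of the group means (horizontal axis, bins of 0.05), for the 12641 other genes tested, with the 9 other chaperone genes as green lines. The lines lie between 0.35 for HSPA5 and 0.86 for SDF2L1 and HYOU1, to the right of most genes. The height of a line carries no value.

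Without control 4 and treated 3, the animals farthest from the median of HSP90B1, the r was 0.82 for HYOU1, 0.73 for SDF2L1, 0.65 for PDIA4, 0.62 for CALR and 0.096 for HSPA5. Within the groups of 6, the r with HSP90B1 was 0.87 in control and 0.91 in treated animals for HYOU1, 0.85 and 0.93 for SDF2L1, and 0.84 and 0.82 for PDIA4. With each animal left out in turn, the r of HYOU1 stayed between 0.83 and 0.90 and its rank between 1 and 13, and the r of SDF2L1 stayed between 0.76 and 0.94 and its rank between 1 and 11. The rank of SDF2L1 was lowest at 11 without control 4, and that of HYOU1 was lowest at 13 without control 1. The r of PDIA4 fell to 0.66 at the lowest (with a permutation p of up to 0.051) and that of CALR to 0.62 (with a permutation p of up to 0.082). The correlation of HSPA5 depended on its own highest animals: without control 6 and treated 6, its r with HSP90B1 was 0.83 and its rank 33. Without these animals PDIA6 had an r of 0.82 and rank 43, HYOU1 an r of 0.91 and rank 3, and SDF2L1 an r of 0.86 and rank 18.

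**Figure D4:**
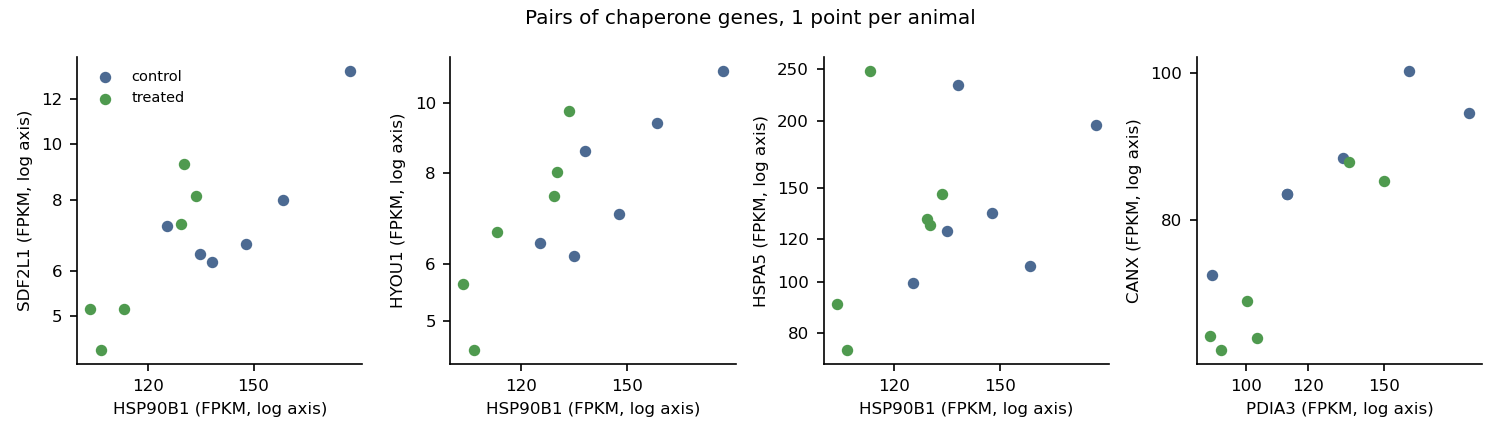
FPKM of pairs of chaperone genes on log axes, 1 point per animal (control blue, treated green). SDF2L1 and HYOU1 follow HSP90B1 over the 12 animals, HSPA5 is set apart by control 6 and treated 6 at 233 and 248 FPKM, and CANX follows PDIA3.

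Among the 10 genes, all 45 pairs had a positive r, from 0.027 (HSPA5 and PDIA4) to 0.91 (CANX and PDIA3), with a median of 0.54. These pairs share their libraries, and no pair passed the adjustment over all genes. CANX and PDIA3, a lectin and the isomerase that works with it, had the closest relation (rho = 0.85, permutation p = 0.00051, adjusted p = 0.14) and an r of 0.92 in control and 0.95 in treated animals. PDIA3 was rank 16 of the 12641 genes for CANX, and CANX was rank 9 for PDIA3. Next were PDIA4 with SDF2L1 (r = 0.88, permutation p = 0.0031) and the pairs of HSP90B1 with SDF2L1 and HYOU1 given above. HYOU1 with SDF2L1 (r = 0.83) and with DNAJB11 (r = 0.83) came after these. Without control 4 and treated 5, the r was 0.66 for HYOU1 with SDF2L1 and 0.65 for HYOU1 with DNAJB11. It was 0.85 for PDIA4 with SDF2L1 without the same animals. HSPA5 was close to PDIA6 (r = 0.81, rho = 0.81, permutation p = 0.0029, adjusted p = 0.069) and to no other member as closely, with r values of 0.17 for CALR and CANX. PDIA6 was only rank 231 of the 12641 genes for HSPA5. With PDIA6 as the starting gene, HSPA5 was rank 34 and the adjusted permutation p of the pair was 0.45. The r of HSPA5 and PDIA4 was 0.90 without control 6 and treated 6, so that the low value of this pair rests on those animals. Without them the r of HSPA5 was also 0.82 with HYOU1 and 0.86 with SDF2L1. It was 0.62 with DNAJB11 and 0.70 with PDIA6, but only 0.27 with CALR, 0.36 with CANX and 0.40 with PDIA3.

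**Figure D5:**
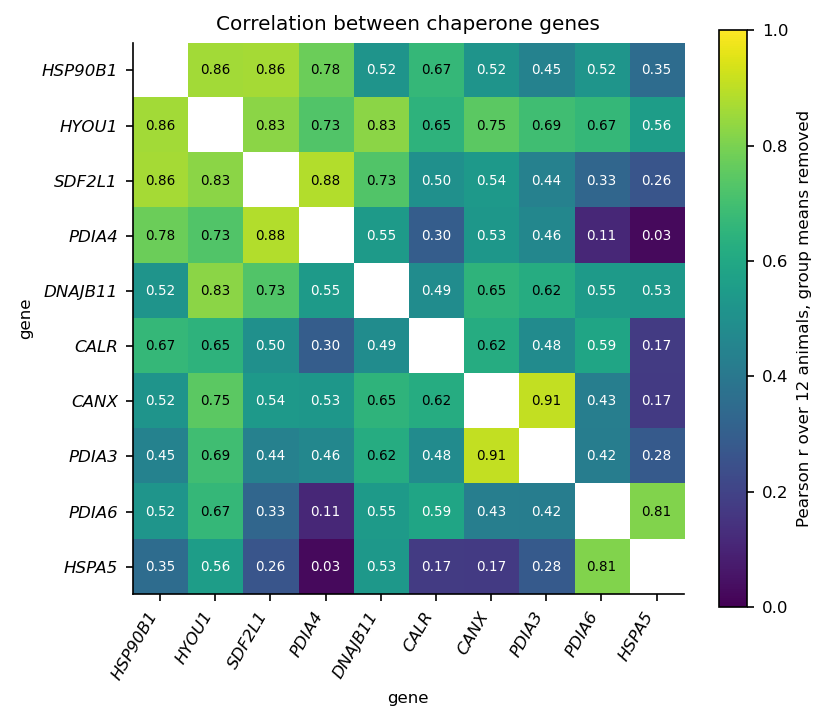
Pearson r between each pair of the 10 chaperone genes over 12 animals after removal of the group means (colour scale from 0 to 1, value in each cell). The block of HSP90B1, HYOU1, SDF2L1 and PDIA4 holds values from 0.73 to 0.88, CANX and PDIA3 reach 0.91, and the row of HSPA5 runs from 0.027 for PDIA4 over 0.53 for DNAJB11 and 0.56 for HYOU1 to 0.81 for PDIA6.

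The genes most like the mean of the 10 standardized members, among the non-members with a mean of at least 1 FPKM, were TXLNG with an r of 0.94 over the 12 animals and EPRS, which encodes the glutamyl-prolyl-tRNA synthetase, with an r of 0.91. They were followed by LOC102398384 and LOC102403559 with r values of 0.91 and 0.90, and by JAK3, SULT2B1, LOC102415331, XPO5, LOC112584573 and LOC102415099 with r values from 0.86 to 0.88. Of the members themselves HYOU1 was nearest to this mean (r = 0.98) and HSPA5 farthest from it (r = 0.54). Each member is part of this mean, which raises its r, so these values cannot be set beside those of the non-members. EPRS averaged 53.2 FPKM in control and 49.4 FPKM in treated animals, a log2 difference of -0.11 ± 0.11 (SE).

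The other genes of the pathway were taken from 8 functional lists, and none of their genes had an unadjusted limma p below 0.05. Of 16 UPR sensors and transcription factors tested, 7 were lower in treated animals, with a median log2 difference of 0.0096. The UPR factor ATF3 averaged 1.82 ± 0.558 FPKM (SD, n = 6) in control and 2.5 ± 1.23 FPKM (n = 6) in treated animals, a log2 difference of 0.41 ± 0.31 (SE), and NFYC, a subunit of the factor NF-Y, had 0.24 ± 0.14 (SE). Of 19 other UPR-induced genes, 14 were lower, with a median of -0.07, among them EDEM3 (-0.21 ± 0.16, SE), which trims glycans of misfolded proteins, and SERP1 (-0.16 ± 0.12, SE). Of 23 disulfide exchange and folding enzymes, 16 were lower, with a median of -0.07. P4HB, a further disulfide isomerase gene, averaged 393 ± 47.7 FPKM in control and 339 ± 40.5 FPKM in treated animals (n = 6 each), a log2 difference of -0.21 ± 0.12 (SE), and DNAJC10, an ER reductase, had -0.27 ± 0.19 (SE).

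Of 8 genes of glycoprotein quality control, 5 were lower, with a median of -0.09, including the cargo lectin LMAN1 (-0.21 ± 0.13, SE) and the folding sensor UGGT1 (-0.12 ± 0.14, SE). Of 9 other cochaperones of the ER, 6 were lower, with a median of -0.05, and the translocon-linked SEC63 and SEC62 had log2 differences of -0.17 ± 0.11 and -0.18 ± 0.13 (SE). Of 23 genes of the translocon and of ER retrieval, 17 were lower, with a median of -0.06. SEC61A2, a pore subunit of the translocon, had a log2 difference of 0.23 ± 0.13 (SE), and the oligosaccharyltransferase gene STT3A had -0.19 ± 0.13 (SE). Of 15 genes of HSP90B1 client proteins, 12 were lower, with a median of -0.11. The integrin gene ITGA2 averaged 10.04 ± 2.11 FPKM in control and 7.91 ± 1.37 FPKM in treated animals (n = 6 each), a log2 difference of -0.34 ± 0.16 (SE), and the Wnt coreceptor gene LRP6 had -0.25 ± 0.16 (SE). The median r of these clients with HSP90B1 over the animals was -0.15, and 5 of 15 were positive.

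Chaperones outside the ER were split in direction. Of 11 cytosolic and mitochondrial chaperone genes, 6 were lower, with a median log2 difference of -0.0066. HSP90AA1, the cytosolic counterpart of HSP90B1, averaged 263 ± 41.9 FPKM in control and 237 ± 31.2 FPKM in treated animals (n = 6 each), a log2 difference of -0.15 ± 0.13 (SE), and its r with HSP90B1 over the animals was 0.70. HSPA9, the mitochondrial HSP70, had a log2 difference of -0.13 ± 0.08 (SE) and an r of -0.07.

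Markers of other cell types were set beside these values. All 7 smooth muscle markers tested and all 10 fibroblast markers were lower in treated animals, with median log2 differences of -0.78 and -0.66, and the most abundant of them, SMTN and COL3A1, had log2 differences of -0.03 ± 0.42 and -0.59 ± 0.53 (SE). The muscle filament gene DES was the 1 with an unadjusted limma p below 0.05. The summed FPKM of the smooth muscle markers ranged from 29.4 to 52.2 in control and from 15.7 to 42.8 in treated animals, and that of the fibroblast markers from 49.6 to 290 and from 20.7 to 194. Over the animals, 0 of 10 fibroblast markers and 1 of 7 smooth muscle markers correlated positively with HSP90B1. With a score of these 17 genes as a covariate, all 10 chaperone genes stayed lower, the median of the 9 was -0.40, and 6 of the 9 (SDF2L1, PDIA3, PDIA4, DNAJB11, CALR and CANX) had an unadjusted limma p below 0.05, with the smallest at 0.0024 for CANX (adjusted p = 0.9995). In that fit 370 of all 12642 genes had such a p, against 157 in the main comparison. With that score removed, the r with HSP90B1 was 0.81 for SDF2L1, 0.80 for HYOU1 and 0.69 for PDIA4, but 0.21 for PDIA3 and 0.19 for CANX.

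Plasma cells, which are rich in ER chaperones, were looked for by 10 markers, of which IGHM was not matched by symbol and POU2AF1 was at 0. The marker MZB1 reached 0.35 FPKM in control and 0.185 FPKM in treated animals at most, and TNFRSF17 reached 0.0648 and 0.187 FPKM. All 4 markers tested were lower in treated animals, with a median of -0.09 and none with an unadjusted limma p below 0.05. The summed FPKM of the 9 markers found by symbol ranged from 107 to 125 in control and from 97.5 to 134 in treated animals. Most of it came from SDC1 (100.3 FPKM and 100.2 FPKM), which squamous epithelium also expresses. The score of the 4 markers was highest in control 4 (0.78) and control 6 (0.69) and lowest in treated 5 (-0.73) and treated 3 (-0.43), and control 4, treated 5 and treated 3 were also high or low in most chaperones. Control 2 went the other way, with a score of -0.38 and a place among the highest 3 animals in 6 of the 10 genes. The plasma cell score includes SDC1 but not MZB1 or POU2AF1, which did not pass the filter on low read numbers. It is therefore not a measure of plasma cells alone. With this score as a covariate the median log2 difference of the 9 members was -0.16, and HSPA5 stood at 0.03. None of the 9 had an unadjusted limma p below 0.05. With the score removed, the r with HSP90B1 was 0.81 for HYOU1, 0.80 for SDF2L1, 0.70 for CALR and 0.67 for PDIA4, and it was 0.40 for CANX, 0.27 for PDIA6, 0.22 for PDIA3, 0.17 for DNAJB11 and -0.12 for HSPA5.

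Of the other marker lists, 2 of 9 basal and 4 of 11 suprabasal squamous markers were lower, with median log2 differences of 0.08 and 0.07, and KRT1 was at 0. The summed FPKM of the basal markers ranged from 1307 to 3147 in control and from 1456 to 4007 in treated animals, and that of the suprabasal markers from 2113 to 4557 and from 2108 to 4087. Of 7 endothelial markers, 6 were lower (median -0.11), of 5 markers of macrophages and dendritic cells 2 were lower (median 0.03), and of 6 T cell markers 4 were lower (median -0.05). Their most abundant genes PECAM1, CD14 and CD247 had log2 differences of -0.08 ± 0.44, -0.03 ± 0.26 and -0.08 ± 0.17 (SE). None of these had an unadjusted limma p below 0.05, and their part in the chaperone values was not tested.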

How the data were processed

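Total RNA of frozen rumen wall from 12 animals was sequenced from stranded libraries. Reads were trimmed by the authors (Trimmomatic 0.39), mapped to the UOA_WB_1 assembly (STAR 2.5.2b) and assigned to genes by strand (featureCounts 2.0.0, mapping quality 30 or more). The authors deposited FPKM, and the tool and gene lengths behind them are not given in the sources used here. Of the value columns, 12 were matched to the animals by their labels, and 4 match no sample and were not used. The FPKM of each of the 22972 genes above 0 are whole multiples of the value of 1 fragment (tolerance 0.001), from which fragment numbers were worked out, and these set the filter that the study states for HTSFilter. Any 2 animals of a group differed by at least 19.2 times the sampling noise (chi-square over its degrees of freedom), and none was treated as a duplicate. The animals are separate samples by their labels.

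Differences were tested with limma 3.58.1 in R 4.3.3 (lmFit, eBayes with trend) on log2(FPKM + 0.01). The adjustment of Benjamini and Hochberg covered 12642 genes, and fold changes are on that scale, which slightly understates those of low genes. The exact two-sided permutation test covered all assignments of 6 and 6 animals, for which the smallest p is 0.00216. Correlations used two-sided permutation within groups with 100000 resamples, adjusted over all genes. Python 3.11.15, numpy 2.4.6, pandas 2.3.3 and matplotlib 3.10.9 were used. The methods were tested on simulated data.

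The members and gene lists were chosen with earlier results of these data known. Genes named are the members, from each functional list those with an unadjusted p below 0.05 or otherwise the 2 with the smallest p, the 10 non-members most like the members' mean, and the most abundant gene of each marker list. DES, POU2AF1, MZB1, TNFRSF17, KRT1 and IGHM were named after their values were seen. Alternatives were pseudocounts of 0.1 and 1, other filters, TMM and median ratio scaling, robust empirical Bayes, voom, an exact rank-sum test, the replicate number as a block, marker scores as covariates, and each animal left out. Leaving out control 6 and treated 6 together was added after seeing the data. Gene positions and sequences are not given here, since no genome of this build was used.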

Additional observations from a re-analysis of the deposited data

Results flagged for a closer look

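In the control group, control 4 stood apart from the other 5 animals in 2 of the 10 genes. PDIA4 was 58.5 FPKM in control 4 and at most 41.9 FPKM in the other controls, and SDF2L1 was 13.4 FPKM in control 4 and at most 7.97 FPKM in the others. The gap to the nearest animal was 0.819 of the group's range for PDIA4 and 0.757 for SDF2L1, above Dixon's 95% critical value for 6 animals. With 20 groups examined, chance flags about 1 in 20. Without control 4, the r of SDF2L1 with HSP90B1 was 0.76 and its rank among all genes was 11, and the log2 difference between the diets was -0.12 for SDF2L1 and -0.20 for PDIA4.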

How the results depend on the processing

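The 10 chaperone genes were lower in treated animals under 23 of 25 alternatives, and 0 genes passed the adjusted threshold in the main comparison (limma) or under any of the 25, voom and the exact rank-sum test included. The exceptions concern HSPA5, whose log2 difference was 0.02778 with the plasma cell score as a covariate and 0.002792 as the difference of group medians in the exact rank-sum test. The median of the 9 members other than HSP90B1 stayed between -0.40 (smooth muscle and fibroblast score) and -0.16 (plasma cell score), and between -0.32 and -0.19 with each animal left out. The number of genes with an unadjusted p below 0.05 was 157 in the main comparison, 562 without a filter, 301 among genes that reach 0.1 FPKM in 6 or more animals, 370 with the smooth muscle and fibroblast score, 314 without control 6 and treated 6 (chosen after seeing the data), and between 142 and 325 with an animal left out, 325 being the value without treated 6. Of the 9 members, between 0 and 6 had such a p. DNAJB11 had one with TMM and with median ratio scaling, and between 0 and 3 members had one with an animal left out. More genes were tested without a filter (22972) and with the 0.1 FPKM filter (16450) than in the main comparison (12642). The cause of these changes was not tested. With the replicate number as a block, 322 genes and 4 of the 9 members (CALR, CANX, PDIA4 and DNAJB11) had an unadjusted limma p below 0.05, and no gene passed the adjustment. The numbers name different animals and come from the sample descriptions, while the sample titles number several animals differently. Of the same-numbered pairs, 4 of 6 had a correlation of deviations over 0.1 (from -0.013 to 0.42). Further, 8 of 12 animals correlated best with their own number, where both animals of a pair enter the count. The mean correlation was 0.21 for same-numbered pairs and -0.039 for all other pairs. What the numbers stand for was not tested. The number of members correlated with HSP90B1 after adjustment was 0 in every setting. With 6 animals a group, the intervals of the log2 differences given in the text hold 0 for each of the 9 except CANX and reach down to -41.2% for HSPA5, -44.5% for DNAJB11 and -41.6% for SDF2L1.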

Other observations

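In comparisons added after seeing the data, each chaperone gene in turn was correlated with all genes over the animals. After Benjamini-Hochberg adjustment over 12641 genes, 161 genes correlated with HSPA5 by the permutation test within groups, 78 of them positively, and none of the other 9 members was among them. For each of the other 9 members as the starting gene, 0 genes passed the same adjustment. The count for HSPA5 was not stable when an animal was left out. It was 0 without control 6, without treated 2, 3, 4, 5 or 6, and without control 6 and treated 6 together. When another animal was left out it was between 3 and 185, and the cause was not tested. At an unadjusted p, 9.29% of genes had a positive correlation with HSPA5, 9.53% with CANX and 9.71% with PDIA3. The 3 genes with the highest r with HSPA5 were SLC6A14, an amino acid transporter, the serine protease gene TMPRSS11A, and CISD2, which encodes an ER membrane protein. These genes were named after their values were seen. HYOU1 was the member with the most relatives within the family, since 8 of the other 9 had an unadjusted permutation p below 0.05 with it, where 2.44% of all genes had one with a positive r.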
